A study of Oryza sativa with 12 samples.

Results

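In germinating rice embryos, 30 genes were higher under an anaerobic incubation (AC), submerged in tubes flushed with nitrogen gas, than in air. This was so whether the medium held glucose or mannitol. The 30 genes were not raised by 2,4-dinitrophenol (DNP), a chemical that lowers cellular energy in air. They were chosen from condition means of log2 expression values. A probe set, a group of array probes summarized to 1 value, had to be mapped to 1 gene. It had to be higher by at least 1 (a fold of 2) in the anaerobic condition than in air in both media. Its DNP minus air difference had to be under 0.25 in both media. Of 36643 probe sets, 24161 were mapped to 1 gene, 90 to several and 12392 are unnamed here. The 4 thresholds were met by 31 probe sets with 1 gene, and 30 remained after Adh2, an alcohol dehydrogenase gene, was left out by name. OsPPT3 was to be left out as well, but did not meet the thresholds. Since these values chose the genes, the differences of the 30 genes under AC and with DNP are given as a description, with no test.

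Oxygen is the last electron acceptor of mitochondrial respiration. Without it, plant cells regenerate NAD+ by fermentation and make ATP mainly through glycolysis. DNP carries protons across the inner mitochondrial membrane, so that electron transport and oxygen use go on while ATP synthesis falls. In Arabidopsis, oxygen itself is read by plant cysteine oxidases, which mark group VII ethylene response factors for degradation as long as oxygen is present. Rice is known for germinating without oxygen, by elongating its coleoptile, and for drawing on starch and sugar to do so.

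Embryos were taken from seeds of the cultivar Dongjin and kept for 24 h in darkness at 28 °C with 10 mM CaCl2 and 60 mM sugar or sugar alcohol. The condition Glc held glucose and Mtl held mannitol, a poorly metabolised sugar alcohol, both in air on wet paper. GlcDNP and MtlDNP were the same with 0.08 mM DNP. In GlcAC and MtlAC, AC is an abbreviation that the labels leave unexplained, read here as the incubation in tubes of medium flushed with nitrogen gas. Embryos in those tubes were also submerged, so that loss of oxygen, the nitrogen flush and submergence cannot be told apart. Each of the 6 conditions had 2 arrays (Affymetrix RJpGene-1_1-st, 12 arrays in all), all from embryos taken out of whole seeds. The design text calls the replicates technical, so p-values measure only the spread between arrays. SEs and p-values are from limma fitted to all probe sets, with Benjamini-Hochberg adjustment. A difference was called where its adjusted p was under 0.05 and its size on the log2 scale was 1 or more.

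The arrays had medians of 3.23 to 3.31 on the log2 scale, and correlations within a condition were 0.95 to 0.976 over all probe sets. Values spread less in some conditions, with an SD within an array of 1.81 to 1.86 in air, 1.64 to 1.67 with DNP, 1.77 in GlcAC and 1.67 to 1.68 in MtlAC. The 7 measured embryo markers, among them the late embryogenesis gene EMP1 and the oleosin OLE18, had a summed level on the log2 scale of 8.50 to 10.42 over the arrays. That level was 8.57 in Glc, 8.56 in Mtl, 10.37 in GlcDNP, 10.38 in MtlDNP, 9.23 in GlcAC and 9.81 in MtlAC. It was therefore highest with DNP and intermediate under AC. Levels of different probe sets cannot be compared and no other tissue was measured, so these values do not test the tissue label. Over the arrays, the 7 endosperm markers stayed between 5.84 and 6.43, the 3 green shoot markers between 3.53 and 4.34 and the 3 root markers between 4.82 and 5.56. RMA values have no true 0, so no marker can be said to be absent.

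Most probe sets at least 1 higher under AC in both media also reached 0.25 in a DNP difference. Among probe sets with 1 gene, 526 were higher by at least 1 under AC with glucose and 826 with mannitol. The 308 that did so in both media included 166, or 53.9%, whose DNP differences were also both at least 1. A further group reached 0.25 with DNP without reaching 1 in both media, and 277 of the 308, or 89.9%, had at least 1 DNP difference of 0.25 or more. The remaining 31, or 10.1%, met all 4 thresholds, which is 0.128% of the probe sets with 1 gene. The AC and DNP comparisons of a medium share its air arrays, so a low air value enters both. All probe sets had median DNP differences of 0.10 with glucose and 0.15 with mannitol. The share of them that reached 0.25 was not counted, so no link between AC and DNP is read from these shares.

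**Figure D1:**
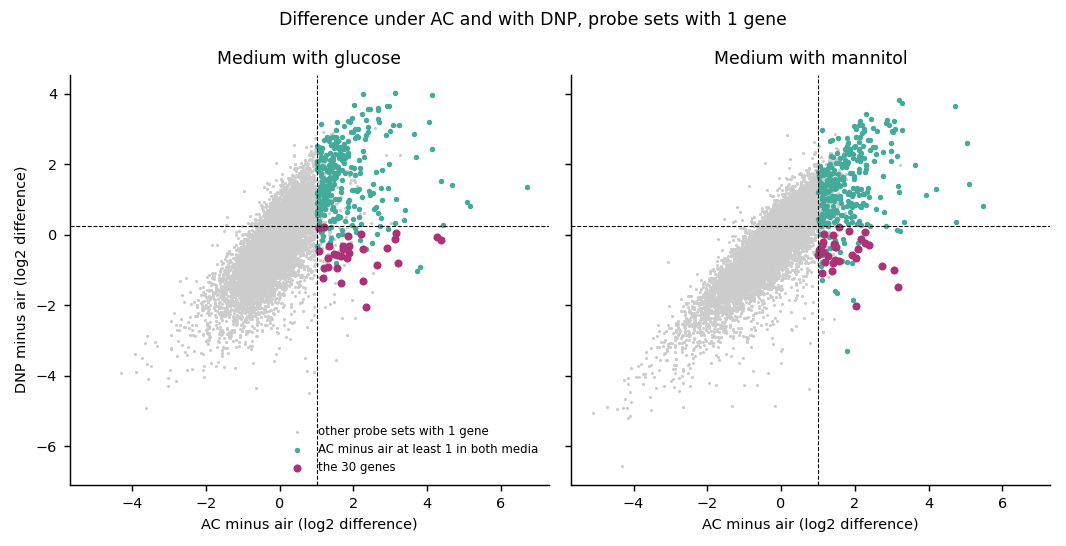
Each point is a probe set with 1 gene, placed by its AC minus air (horizontal) and DNP minus air (vertical) log2 difference of condition means, for glucose (left) and mannitol (right), with the rule's thresholds dashed. The 30 genes (purple) lie in the lower right corner by construction, and most other genes raised under AC in both media (green) lie above the DNP threshold of 0.25.

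Across the 30 genes, the median AC minus air difference was 1.78 with glucose (1.06 to 4.37) and 1.48 with mannitol (1.01 to 3.16), on the log2 scale. The medians over all probe sets were 0.03 and 0.10. In all 30, both AC arrays lay above both air arrays of the same medium, an order found in 26.4% of all probe sets with glucose and 37.4% with mannitol. In 28, every AC array lay above every other array of the 12, an order seen in 1.22% of all probe sets. The exceptions were LOC4326487 and LOC4337551. The rule selected for these orders, so the shares carry no weight of their own. In RNA from whole embryos, fewer cells of a type and less RNA per cell cannot be told apart.

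**Figure D2:**
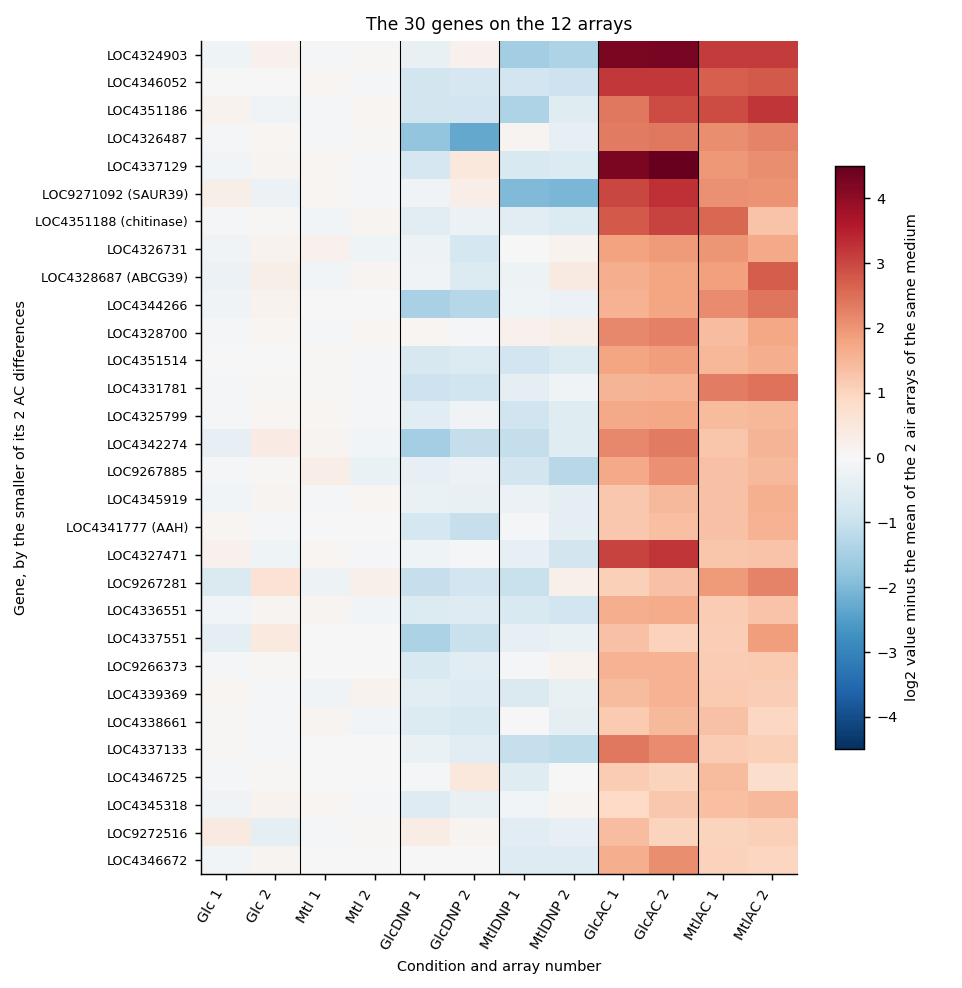
Colour gives the log2 value of each of the 30 genes (rows, ordered by the smaller of their AC differences) on each of the 12 arrays (columns), minus the mean of the 2 air arrays of the same medium. All 4 AC columns are red in every row, and the DNP columns are pale or blue.

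The gene with the largest AC response common to both media was LOC4324903, which the tables used here do not name further. Its level on the log2 scale was 3.87 and 4.27 on the Glc arrays, 5.49 and 5.58 in Mtl, 3.75 and 4.26 in GlcDNP, 3.98 and 4.15 in MtlDNP, 8.32 and 8.34 in GlcAC, and 8.70 and 8.69 in MtlAC. The AC arrays stood far above all others, and the mannitol air arrays stood above the glucose ones and above the DNP arrays. The AC difference was 4.26 ± 0.21 (SE, n = 2 arrays per condition), a 19.2-fold difference, with glucose and 3.16 ± 0.21, or 8.94-fold, with mannitol. With DNP, the difference was -0.07 in glucose and -1.47 in mannitol.

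LOC4346052, also without a name, had levels of 5.41 and 5.39 in Glc, 6.16 and 5.97 in Mtl, 4.59 and 4.63 in GlcDNP, 5.21 and 5.14 in MtlDNP, 8.60 and 8.60 in GlcAC, and 8.77 and 8.83 in MtlAC. Its replicate arrays were close and the 3 environments did not overlap in either medium, with DNP lowest and AC highest. AC minus air was 3.20 ± 0.15 (9.18-fold) with glucose and 2.74 ± 0.15 (6.67-fold) with mannitol, against DNP differences of -0.79 and -0.89. LOC4351186 had levels of 3.94 and 3.60 in Glc, 4.21 and 4.42 in Mtl, 2.94 and 2.91 in GlcDNP, 2.91 and 3.75 in MtlDNP, 6.14 and 6.70 in GlcAC, and 7.25 and 7.52 in MtlAC. It showed the same order of environments without overlap, though its MtlDNP arrays lay apart from each other. Its AC differences were 2.65 ± 0.29 (6.26-fold) and 3.07 ± 0.29 (8.4-fold) for glucose and mannitol, and its DNP differences -0.85 and -0.98.

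LOC4326487 followed glucose as well as AC. Its levels were 6.37 and 6.52 in Glc, 4.37 and 4.45 in Mtl, 4.66 and 4.13 in GlcDNP, 4.54 and 4.06 in MtlDNP, 8.77 and 8.82 in GlcAC, and 6.49 and 6.65 in MtlAC. The MtlAC arrays overlapped the Glc arrays, and Mtl and both DNP conditions formed a common low group. AC minus air was 2.35 ± 0.22 (5.09-fold) with glucose and 2.16 ± 0.22 (4.46-fold) with mannitol, so the AC step was close in size on both backgrounds. Its DNP difference with glucose, -2.05, was the lowest of the 30 genes, whereas that with mannitol was -0.12.

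LOC4337129 had the largest AC difference with glucose of the 30 genes. Its levels were 4.03 and 4.25 in Glc, 5.60 and 5.45 in Mtl, 3.39 and 4.61 in GlcDNP, 4.83 and 4.91 in MtlDNP, 8.36 and 8.66 in GlcAC, and 7.49 and 7.63 in MtlAC. Glucose was the lower medium in air and the higher one under AC, and the GlcDNP arrays overlapped the Glc arrays. The AC difference was 4.37 ± 0.32 (20.7-fold) with glucose and 2.03 ± 0.32 (4.09-fold) with mannitol.

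**Figure D3:**
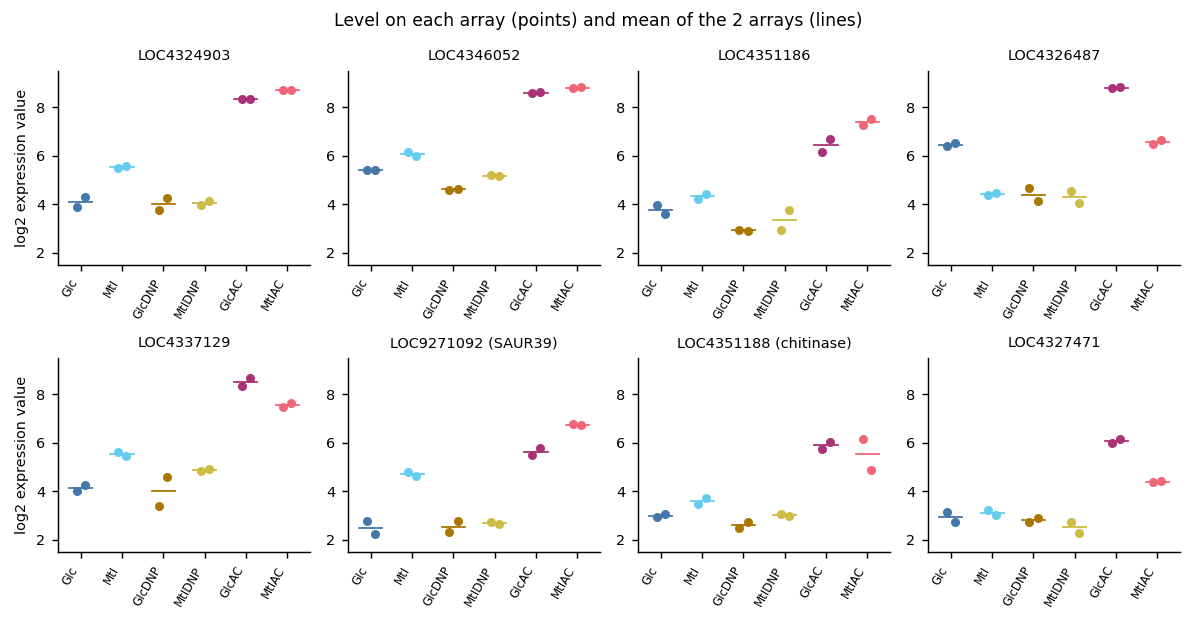
Points give the log2 expression value on each array and lines the mean of the 2 arrays, for 8 of the 30 genes in the 6 conditions. By their means, GlcAC and MtlAC are the highest conditions in every panel, but in that of LOC4326487 the MtlAC arrays overlap the Glc arrays.

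Only 4 of the 30 genes have an informative name in the tables, against 2746 of the probe sets with 1 gene. SAUR39 (LOC9271092) belongs to the small auxin-up RNA family and in rice is known as a negative regulator of auxin synthesis and transport. Its levels were 2.77 and 2.22 in Glc, 4.81 and 4.62 in Mtl, 2.32 and 2.78 in GlcDNP, 2.72 and 2.65 in MtlDNP, 5.51 and 5.77 in GlcAC, and 6.76 and 6.72 in MtlAC. It was low in Glc and in both DNP conditions, intermediate in Mtl and highest under AC. AC minus air was 3.14 ± 0.23 (8.83-fold) with glucose and 2.03 ± 0.23 (4.07-fold) with mannitol. Its DNP difference was 0.05 with glucose and -2.03 with mannitol, the lowest of the 30 genes in that medium.

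LOC4351188 is named a chitinase, an enzyme that hydrolyses chitin, a polymer of fungal cell walls and insect cuticle. Its levels were 2.93 and 3.06 in Glc, 3.48 and 3.72 in Mtl, 2.50 and 2.75 in GlcDNP, 3.08 and 3.00 in MtlDNP, 5.75 and 6.05 in GlcAC, and 6.17 and 4.89 in MtlAC. The MtlAC arrays differed from each other more than in any other of the 30 genes, and both were still above every air and DNP array. AC minus air was 2.90 ± 0.34 (7.47-fold) with glucose and 1.93 ± 0.34 (3.81-fold) with mannitol, and the DNP differences were -0.37 and -0.56.

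ABCG39 (LOC4328687), also OsPDR7, is a membrane transporter of the pleiotropic drug resistance type, which uses ATP to move compounds across membranes. It was measured at 2.93 and 3.46 in Glc, 2.49 and 2.71 in Mtl, 3.02 and 2.57 in GlcDNP, 2.38 and 3.01 in MtlDNP, 4.83 and 4.98 in GlcAC, and 4.43 and 5.33 in MtlAC. Air and DNP arrays overlapped in both media, and all AC arrays were above them. The AC differences were 1.71 ± 0.33 (3.28-fold) with glucose and 2.28 ± 0.33 (4.86-fold) with mannitol, beside DNP differences of -0.40 and 0.09.

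AAH (LOC4341777) is allantoate amidohydrolase, which releases ammonium from allantoate in the breakdown of purines. Its levels were 5.41 and 5.25 in Glc, 5.13 and 5.11 in Mtl, 4.53 and 4.28 in GlcDNP, 5.03 and 4.71 in MtlDNP, 6.56 and 6.70 in GlcAC, and 6.45 and 6.67 in MtlAC. AC, air and DNP arrays formed 3 levels without overlap in both media. The AC differences were 1.30 ± 0.18 (2.46-fold) and 1.44 ± 0.18 (2.72-fold) for glucose and mannitol, and the DNP differences -0.92 and -0.25.

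In the deposited values, the AC difference was larger with glucose in 20 of the 30 genes and larger with mannitol in 10, with a median of glucose minus mannitol of 0.26 on the log2 scale (-0.87 to 2.34). After quantile re-normalization the median was 0.01, with 15 genes on each side, so no general excess in either medium held under both scalings. No test of this difference was made, since the rule used its parts. The excess with glucose in the deposited values was at least 1 in 5 genes, namely LOC4337129 (2.34), LOC4327471 (1.86), LOC4337133 (1.15), SAUR39 (1.12) and LOC4324903 (1.10), and in 3 genes after re-normalization. The AC difference was larger with mannitol by 0.87 in LOC9267281 and by 0.83 in LOC4331781 (glucose minus mannitol -0.87 and -0.83). In LOC9267281, the Glc arrays themselves lay apart at levels of 5.34 and 6.63. Differences of at least 2 in both media were reached by 6 genes, which are LOC4324903, LOC4346052, LOC4351186, LOC4326487, LOC4337129 and SAUR39.

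With DNP, the 30 genes were mostly below air rather than level with it. The median DNP minus air difference was -0.48 with glucose (-2.05 to 0.23) and -0.46 with mannitol (-2.03 to 0.23), on the log2 scale, where all probe sets had medians of 0.10 and 0.15. Both differences were below 0 in 23 genes, a pattern found in 31.7% of all probe sets, and both were above 0 only in LOC4328700 (0.03 and 0.23). The upper threshold of 0.25 favours low values, so nothing is read from these shares. Both GlcDNP arrays lay below both Glc arrays in 21 genes and both MtlDNP arrays below both Mtl arrays in 21, against 28.3% and 29.1% of all probe sets. After quantile re-normalization the median DNP differences were nearer to air, at -0.33 with glucose and -0.31 with mannitol. Then 27 and 24 genes were below 0. The embryo markers named above were at their highest level with DNP, and their part in these values was not tested.

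The genes furthest below air with DNP were not the same in the 2 media. With glucose, the difference was at most -1 in LOC4326487 (-2.05), LOC4344266 (-1.37), LOC4342274 (-1.30) and LOC4337551 (-1.21), a size reached by 10.3% of all probe sets. With mannitol it was at most -1 in SAUR39 (-2.03), LOC4324903 (-1.47), LOC4337133 (-1.08) and LOC9267885 (-1.04), beside 11.2% of all probe sets. The levels of LOC4344266 on the log2 scale were 7.97 and 8.29 in Glc, 7.17 and 7.14 in Mtl, 6.68 and 6.85 in GlcDNP, 6.95 and 6.89 in MtlDNP, 9.70 and 9.91 in GlcAC, and 9.29 and 9.56 in MtlAC. By condition means, Glc was the higher of the air media in all 4 genes low with DNP and glucose, and Mtl in all 4 low with DNP and mannitol. The air arrays enter both values.

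The rule set no threshold on the difference between glucose and mannitol within an environment. This difference was tested over all probe sets. The same arrays entered the rule, so the 30 genes are not a free choice for it, and their counts are given as a description. In air, 3 of the 30 genes were called, beside 2% of all probe sets. They were 1 higher and 2 lower with glucose, beside 0.469% and 1.53%. LOC4326487 was higher with glucose by 2.03 ± 0.22 (SE) on the log2 scale (limma, adjusted p = 0.000829). SAUR39 was lower with glucose, at -2.22 ± 0.23 (limma, adjusted p = 0.000594), and so was LOC4324903, at -1.46 ± 0.21 (limma, adjusted p = 0.00442). The glucose arrays lay apart from the mannitol arrays in 25 genes, above them in 11 and below them in 14, which compares with 24.4% and 19.7% of all probe sets. An unadjusted p under 0.05 was found in 15 genes, beside 13.1% of all probe sets. The call of LOC4324903 is lost without Mtl replicate 2 (adjusted p = 0.0501). Without Glc replicate 1, 5 of the 30 genes were called.

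Under AC, 3 genes were called, beside 2.66% of all probe sets, with 2 higher and 1 lower with glucose, beside 2.27% and 0.393%. LOC4326487 was again higher with glucose, by 2.22 ± 0.22 (limma, adjusted p = 0.00153). LOC4327471 was higher with glucose by 1.69 ± 0.21 (limma, adjusted p = 0.00319), and its difference in air was -0.17 (limma, adjusted p = 0.82). Its levels were 3.16 and 2.75 in Glc, 3.23 and 3.02 in Mtl, 2.75 and 2.90 in GlcDNP, 2.76 and 2.30 in MtlDNP, 6.01 and 6.16 in GlcAC, and 4.37 and 4.42 in MtlAC. The 4 air and 4 DNP arrays overlapped, and the AC arrays formed separate groups by medium. SAUR39 was lower with glucose, at -1.10 ± 0.23 (limma, adjusted p = 0.0278). That call is lost when only the 4 AC arrays are fitted (adjusted p = 0.0762) and without any 1 of them (adjusted p = 0.103 to 0.173, with differences of -1.23 to -0.97). The glucose arrays lay above the mannitol arrays in 15 genes and below them in 7, beside 23.6% and 25.6% of all probe sets. An unadjusted p under 0.05 was found in 15 genes, beside 16.9% of all probe sets.

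With DNP, no gene of the 30 was called for glucose against mannitol by limma, 4 had an unadjusted p under 0.05, and the differences spanned -0.87 to 0.34. Calls were 0.0136% of all probe sets there, and 7.16% had an unadjusted p under 0.05. LOC4326487 differed by 0.10 (limma, adjusted p = 0.959) and SAUR39 by -0.13 (limma, adjusted p = 0.944). The glucose minus mannitol differences with DNP and in air are tied to the DNP differences that chose the genes. Those under AC and in air are tied to the AC differences in the same way. The change between environments is therefore described and not tested.

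The median glucose minus mannitol difference of the 30 genes was -0.14 in air, 0.25 under AC and -0.06 with DNP. Under AC, 20 of the 30 were above 0 in the deposited values. After quantile re-normalization, the AC median was -0.03 with 15 on each side, so the direction under AC depends on the scaling. Among the 277 other genes raised under AC in both media, the median was -0.16 in air, with 5 called higher and 28 lower, and -0.36 under AC, with 6 called higher and 25 lower. The difference between these sets was not tested.

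**Figure D4:**
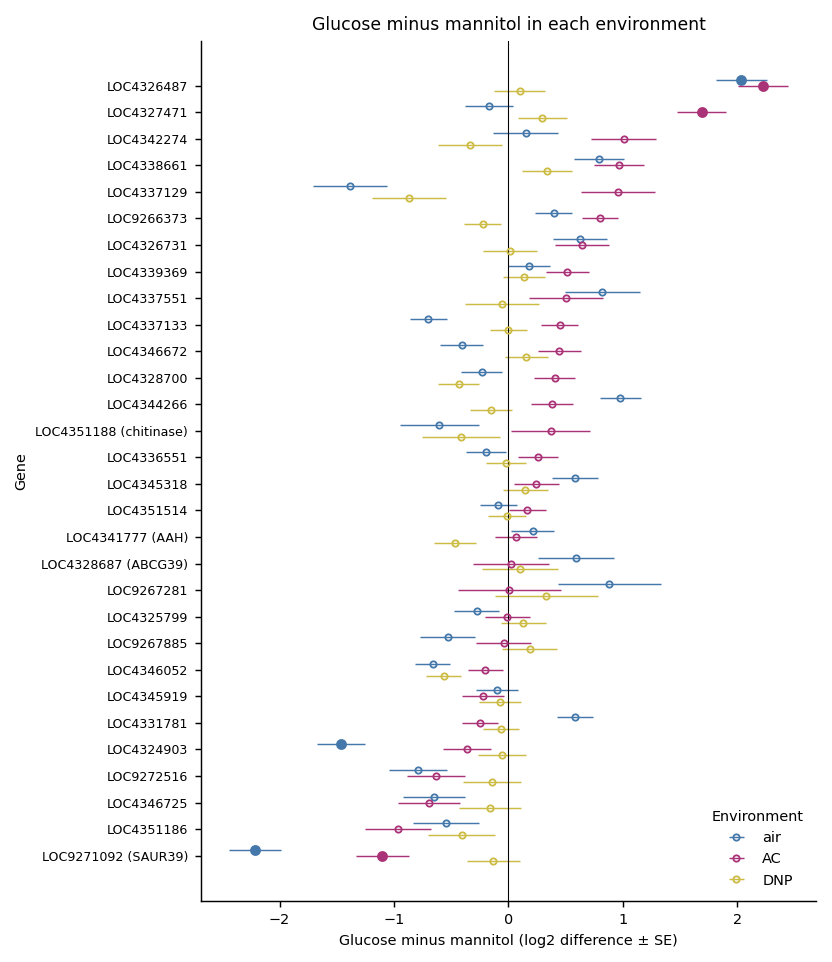
Glucose minus mannitol log2 difference with its SE for each of the 30 genes in air (blue), under AC (purple) and with DNP (yellow), with filled points for called differences. LOC4326487 stands at about 2 in air and under AC and near 0 with DNP, SAUR39 lies below 0 in air and under AC, and the DNP points all lie between -0.87 and 0.34.

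The genes not yet described had AC differences of 1.01 to 2.37 on the log2 scale. LOC4331781 was measured at 9.19 and 9.26 in Glc, 8.68 and 8.60 in Mtl, 8.27 and 8.31 in GlcDNP, 8.25 and 8.47 in MtlDNP, 10.75 and 10.77 in GlcAC, and 10.95 and 11.08 in MtlAC. Within each medium its environments did not overlap, with AC highest and DNP lowest, and AC minus air was 1.54 with glucose and 2.37 with mannitol. LOC4344266 differed by 1.67 and 2.27, LOC4326731 by 1.87 and 1.85, LOC4325799 by 1.73 and 1.46 and LOC9267885 by 1.88 and 1.39, for glucose and mannitol. LOC4351514 (1.83 and 1.57), LOC4336551 (1.65 and 1.20), LOC9266373 (1.56 and 1.15) and LOC4339369 (1.48 and 1.15) also had the larger AC difference with glucose, whereas LOC4345919 (1.34 and 1.46) and LOC4345318 (1.06 and 1.40) had it with mannitol. LOC4342274 (2.25 and 1.40), LOC4337133 (2.25 and 1.10), LOC4328700 (2.21 and 1.57), LOC4346672 (1.86 and 1.01) and LOC4338661 (1.31 and 1.13) started from group mean levels below 4 in air.

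The values of a few genes were close to the thresholds or varied between arrays. LOC4346725 was measured at 1.48 and 1.56 in Glc, 2.14 and 2.19 in Mtl, 1.44 and 2.00 in GlcDNP, 1.62 and 2.15 in MtlDNP, 2.67 and 2.51 in GlcAC, and 3.59 and 2.96 in MtlAC. Its Glc level was close to the 5th percentile of an array, which was 1.0 to 1.16. LOC9272516 had Glc levels of 4.88 and 4.07 and AC differences of 1.19 ± 0.25 and 1.03 ± 0.25. LOC9267281 had AC differences of 1.21 ± 0.45 and 2.08 ± 0.45, and LOC4337551 1.17 ± 0.32 and 1.49 ± 0.32. When each of the 12 arrays was left out in turn, 17 genes met the thresholds every time. LOC9272516 met them in 7 of the 12 repeats and LOC4346725 in 9.

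The choice was also made on arrays numbered 1 and read on arrays numbered 2, and the reverse. Of 32 probe sets chosen on arrays 1, all had both AC differences above 0 on arrays 2, 27 had both at least 1, 23 had both DNP differences under 0.25 and 19 met all thresholds. Of 31 chosen on arrays 2, the same counts on arrays 1 were 31, 24, 26 and 19. The thresholds were met on the read arrays by 0.128% and 0.137% of all probe sets with 1 gene. The medians on the arrays not used for the choice were 1.92 and 1.76 under AC and -0.49 and -0.43 with DNP in the first case, and 1.74, 1.32, -0.40 and -0.55 in the second, for glucose and mannitol in turn. The 19 are the same genes both ways, and all are among the 30. Neither point adds support, because thresholds met on both sets of arrays are also met by their means. Since the arrays may share RNA, the check covers the measurement and not a second set of embryos.

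Some of the 30 genes are near neighbours in the chromosomal order of the RefSeq table. LOC4351186 and the chitinase gene LOC4351188 have 1 gene between them, LOC4337129 and LOC4337133 have 3, and ABCG39 and LOC4328700 have 7. In the chitinase neighbourhood, picked after its values were seen, 4 of the 6 genes outside the 30 were called higher under AC with glucose and 2 with mannitol. Over all probe sets, such calls made up 2.01% and 3.56%. LOC4351191 rose by 3.40 ± 0.25 with glucose (limma, adjusted p = 5.18e-05) and 1.47 ± 0.25 with mannitol (limma, adjusted p = 0.0025). LOC4351190 rose with glucose, by 2.04 ± 0.23 (limma, adjusted p = 0.000549), and not detectably with mannitol (-0.00, adjusted p = 0.995). The gene between the members, Chib3H-h (LOC4351187), by its name a chitinase homologue, rose with mannitol by 1.13 (limma, adjusted p = 0.0114) and had a difference of 0.58 ± 0.26 with glucose (limma, adjusted p = 0.222). LOC4351184 (MYBAS1), a MYB transcription factor gene at the edge of the run, differed by 0.00 and 0.21.

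Several of these neighbours were far below air with DNP. The DNP difference with mannitol was -3.65 in LOC4351190, -2.76 in Chib3H-h (LOC4351187) and -4.36 in LOC4351192, against -0.98 in LOC4351186 and -0.56 in the chitinase gene LOC4351188. Array probes can bind transcripts of related copies, and the part of such binding in the neighbours' values was not tested. Next to LOC4337129, LOC4337127 rose by 3.63 ± 0.17 under AC with glucose (limma, adjusted p = 5.72e-06) and by 2.87 with DNP and glucose (limma, adjusted p = 6.82e-06). It thus missed the DNP thresholds. Of 48 probe sets of genes directly beside 1 of the 30, 1 had both AC differences at least 1, beside 1.16% of all probe sets, and their medians were 0.07 with glucose and 0.06 with mannitol.

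**Figure D5:**
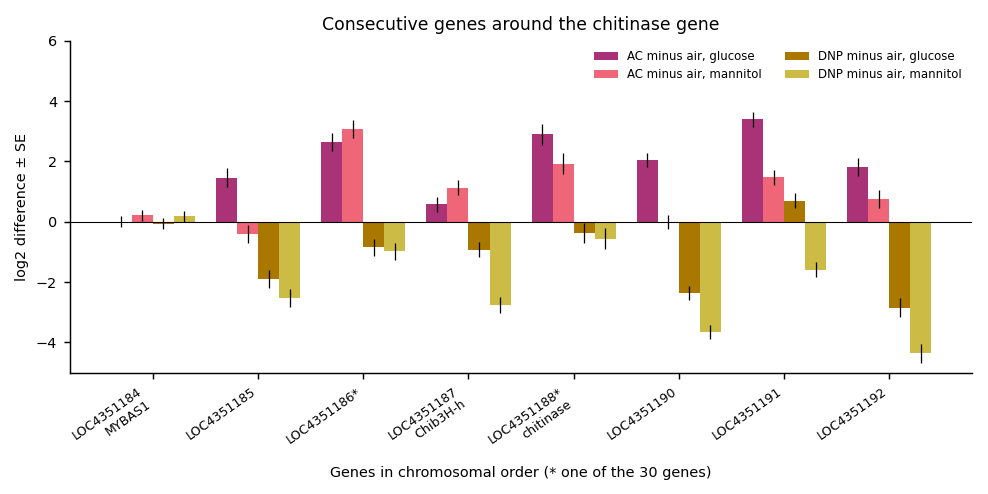
Bars give the log2 difference and its SE under AC and with DNP, in glucose and mannitol, for consecutive genes around the chitinase gene LOC4351188, with asterisks on the members of the 30. AC bars with glucose are above 0 for all genes but MYBAS1 (0.00), and the DNP bars of several unstarred genes reach below -2.

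The thresholds cut through a continuous range. Just inside the AC threshold with glucose were LOC4345318 (1.06), LOC4346725 (1.07) and LOC4337551 (1.17), and just outside were LOC4340142 (0.94), LOC4327287 (0.93) and LOC4325027 (0.87), the fructose-bisphosphate aldolase gene FBA3. With mannitol, LOC4346672 (1.01), LOC9272516 (1.03) and LOC4337133 (1.10) were inside, and LOC4339153 (0.94), LOC4351511 (0.91) and LOC4347474 (0.88) outside. The DNP threshold with glucose separated LOC9272516 (0.23), LOC4346725 (0.20) and SAUR39 (0.05) from LOC4323929 (0.25), LOC9270164 (0.28) and LOC4348268 (0.31). With mannitol it separated LOC4328700 (0.23), LOC4326731 (0.10) and ABCG39 (0.09) from LOC4328435 (0.26), LOC4330329 (0.31) and LOC4332636 (0.35).

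Of the genes left out by name, Adh2 (LOC4350054), which reduces acetaldehyde to ethanol in fermentation, had the same pattern as the 30. Its mean level on the log2 scale was 2.45 ± 0.15 (SD, n = 2) in Glc, 2.21 ± 0.05 in Mtl, 1.65 ± 0.08 in GlcDNP, 1.75 ± 0.03 in MtlDNP, 3.98 ± 0.13 in GlcAC and 3.43 ± 0.39 in MtlAC. The AC differences were 1.54 and 1.22 and the DNP differences -0.80 and -0.46. OsPPT3 (LOC4327644), by its name a phosphoenolpyruvate/phosphate translocator, had larger AC differences of 3.38 and 1.25, but its DNP differences of 0.42 and 0.67 were over the threshold.

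Genes known from oxygen loss, sugar supply and stress were looked up in 27 lists matched by gene names. In 24 lists with a measured member, 398 genes were found, and no list held any of the 30. The thresholds were met by only 0.128% of all probe sets with 1 gene, and only 4 of the 30 have an informative name. Nothing is therefore read from the absence of the 30 from the lists. SAUR genes were not part of the auxin list. Both AC differences were at least 1 in 31 of the 398, and 30 of these 31 had a DNP difference of 0.25 or more. The exception was Adh2. Names match only a small share of the probe sets, so unnamed relatives are not counted.

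Among the fermentation genes, PDC2 (LOC4332519), a pyruvate decarboxylase that feeds acetaldehyde to alcohol dehydrogenase, rose under AC with mannitol by 1.40 ± 0.18 (limma, adjusted p = 0.000459). With glucose its AC difference was 0.68 ± 0.18 (limma, adjusted p = 0.0414), under the size threshold. It fell with DNP and glucose by 1.63 ± 0.18 (limma, adjusted p = 0.000147). Of 3 fermentation genes, 1 was called higher under AC with glucose and 2 with mannitol, beside 2.01% and 3.56% of all probe sets. The gene called with glucose was Adh2, which was also 1 of the 2 called with mannitol. Adh2 met the rule's thresholds, so nothing is read from its calls. With DNP, 1 of the 3 was called lower with glucose and 0 with mannitol, beside 9.28% and 10.4% of all probe sets.

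In 24 genes of glycolysis and sucrose entry, 2 were called higher under AC with each medium, beside 2.01% and 3.56% of all probe sets. Lower calls under AC were 0 with glucose and 3 with mannitol, beside 3.25% and 8.65%. With DNP, 6 were called lower with glucose and 7 with mannitol, beside 9.28% and 10.4% of all probe sets, and 1 was called higher with each, beside 4.67% and 5.91%. HXK6 (LOC4338010), a hexokinase that phosphorylates glucose, rose under AC by 2.77 ± 0.24 with glucose (limma, adjusted p = 0.000132) and 1.51 ± 0.24 with mannitol (limma, adjusted p = 0.00159). It fell with DNP and mannitol by 1.64 (limma, adjusted p = 0.000771), and its DNP difference of 1.0 with glucose kept it out of the 30. FBA3 (LOC4325027) rose under AC with mannitol by 1.01 ± 0.18 (limma, adjusted p = 0.00309) and fell with DNP and glucose by 1.03 (limma, adjusted p = 0.00231). Both FBA3 calls sit at the size threshold and are lost in some alternatives.

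Of 47 heat shock genes, which encode chaperones and their regulators, 19 were called higher under AC in both media, beside 1.03% of all probe sets. Each of these 19 reached 0.25 in a DNP difference, as did 89.9% of all genes at least 1 higher under AC in both media. HSP17.9A (LOC4332357) rose by 2.97 ± 0.18 and 2.99 ± 0.18 under AC and by 3.64 ± 0.18 and 2.61 ± 0.18 with DNP, for glucose and mannitol (limma, adjusted p = 2.03e-05, 1.08e-05, 5.77e-06 and 1.07e-05). Of 13 genes with names of the ethylene response factor family, 3 were called higher under AC in both media, and all 3 reached 0.25 in a DNP difference, a share again to be read beside 89.9%. DREB1I (LOC4346220), of the same family, rose under AC by 3.69 ± 0.19 and 3.23 ± 0.19 (limma, adjusted p = 6.62e-06 and 1.02e-05) and with DNP by 2.22 in glucose (limma, adjusted p = 3.51e-05).

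Some named genes fell under AC. NSHB1, a non-symbiotic hemoglobin that can scavenge nitric oxide, fell under AC with glucose by 2.09 ± 0.20 (limma, adjusted p = 0.000243). Its AC difference with mannitol, -0.78 ± 0.20 (limma, adjusted p = 0.0194), was under the size threshold. It also fell with DNP, by 2.80 in glucose and 2.00 in mannitol (limma, adjusted p = 1.69e-05 and 8.18e-05). AOX1A (LOC4336874), the alternative oxidase that passes electrons to oxygen without pumping protons, fell under AC by 1.44 ± 0.19 with glucose and 1.18 ± 0.19 with mannitol (limma, adjusted p = 0.00168 and 0.00204). Its DNP differences, 0.52 and 0.80, were not called. Of 46 expansin genes, which loosen cell walls, 10 were called lower under AC with glucose and 9 with mannitol, beside 3.25% and 8.65% of all probe sets. In the same list, 2 and 1 were called higher, beside 2.01% and 3.56%.

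Hormone genes gave few calls in both media. Of 62 auxin genes, 1 was called higher under AC with each medium, beside 2.01% and 3.56% of all probe sets, and 2 and 8 were called lower, beside 3.25% and 8.65%. The counts called higher, and that called lower with glucose, are at or below what the background shares give. The gene called higher in both, IAA9 (LOC4331061), a repressor of auxin responses, had AC differences of 1.15 ± 0.31 and 1.01 ± 0.31 (limma, adjusted p = 0.0478 and 0.0393), calls that many alternatives lose. Its DNP difference of 0.44 with mannitol was over the threshold. ABA8OX1 (LOC9269675), which inactivates abscisic acid, rose under AC by 1.63 ± 0.24 and 2.30 ± 0.24 (limma, adjusted p = 0.00278 and 0.000139), and its DNP differences were 0.51 and 0.84.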

How the data were processed

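Total RNA of rice embryos was measured on 12 arrays. The deposited log2 values are RMA values that the authors made with Expression Console at the core level, per the labels. The submitters' processing notes name Affymetrix Power Tools. Software versions and the genome build are not stated in the sources used here. The base of 2 was taken from the range of -0.49 to 13.12. RMA brings the probe intensities of arrays to a common distribution, which can hide a shift of all genes. The deposited probe set values still differed in spread between conditions, as given above. Probe sets were named through the platform's probe table and RefSeq gene numbers (assembly GCF_034140825.1, for names and gene order only).

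The 30 genes and all lists were chosen with earlier results of these data known, and list patterns were matched by symbol and synonym after the tables were seen. Differences over all 36643 probe sets were fitted in R 4.3.3 using limma 3.58.1, 1 coefficient per condition, with 6 residual and 3.83 prior degrees of freedom and no trend. The fit was tested on simulated data with independent normal noise and changes in Glc only. That setting is simpler than the deposited data, so it checks the code and not the calls. Tables were made with pandas 2.3.3 in Python 3.11.15. The 2 arrays of a condition limit the precision. Genes were named as follows: the 4 members with informative names, the 6 with the largest smaller AC difference, called members, the 3 on either side of each threshold, and up to 4 per list. Other members were named, and neighbours picked, after their values were seen. Alternatives were quantile re-normalization, a filter on dim probe sets, a trended robust variance, fewer arrays, a replicate block, other thresholds and leaving out each array.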

Additional observations from a re-analysis of the deposited data

Results flagged for a closer look

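In some of the 30 genes, both glucose arrays lay above both mannitol arrays in 1 environment and below them in another. These reversals were not tested, since the contrast between environments is built from the values that chose the genes. Between air and AC, the glucose minus mannitol difference on the log2 scale went from -1.38 to 0.95 in LOC4337129 and from -0.70 to 0.45 in LOC4337133, which lie near each other on the chromosome. It went from -0.41 to 0.44 in LOC4346672, from -0.23 to 0.40 in LOC4328700 and from -0.087 to 0.17 in LOC4351514. LOC4331781 went the opposite way, from 0.58 to -0.25. Between air and DNP, the difference went from 0.98 to -0.15 in LOC4344266, from 0.21 to -0.46 in AAH (LOC4341777), from 0.40 to -0.23 in LOC9266373 and from -0.41 to 0.16 in LOC4346672. None of these differences was called, and most were under 1 in size. Over all probe sets, the glucose arrays lay above the mannitol arrays in 24.4% and below them in 19.7% in air. Under AC these shares were 23.6% and 25.6%. The share of all probe sets with a reversal was not counted, so nothing is read from the reversals among the 30.

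Outside the named genes, 8 probe sets that are unnamed here also met the 4 thresholds. Their AC differences were 1.04 to 2.97 with glucose (median 2.59) and 1.19 to 3.68 with mannitol (median 1.47), and their DNP differences were -1.52 to 0.12 and -0.60 to -0.12.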

How the results depend on the processing

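The 30 genes became 39 after quantile re-normalization, of which 26 were shared. They numbered 13 with an AC threshold of 1.5, 46 with 0.8, 23 with a DNP threshold of 0, 48 with 0.5, 28 without dim probe sets and 27 to 32 when an array was left out. Quantile re-normalization dropped LOC4326731, LOC9272516, LOC9266373 and LOC4344266, each for a DNP difference of 0.28 to 0.37. AC differences of the 30 stayed above 0 in every alternative run, the lowest being 0.57 with glucose and 0.79 with mannitol. Calls for glucose against mannitol among the 30 were 2 to 5 in air with an array left out (5 without Glc replicate 1), 2 to 3 under AC and 0 with DNP in all. Over all probe sets, AC calls with glucose numbered 1925 and ranged from 1218 (without GlcAC replicate 2) to 1965, with 1280 without Glc replicate 2. Leaving out 1 array gave 3608 to 4561 AC calls with mannitol, against 4475, and 4065 to 5672 and 5099 to 6595 DNP calls, against 5113 and 5983. Replicate numbers did not pair the arrays (correlations of deviations -0.02 to 0.09). With a replicate block, 3, 3 and 0 of the 30 were called for sugar in air, AC and DNP, and 1906 probe sets for AC with glucose. A motif search of promoters was not run, because no promoter sequences were used here. No called difference turned its direction. Uncalled values did: the median glucose minus mannitol difference of the 30 under AC went from 0.25 to -0.03 after quantile re-normalization, and DNP differences changed sign in at least 1 alternative in 9 genes with glucose and 9 with mannitol, all under 0.40 in size. The low end of the scale limits LOC4346725 in particular.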

Other observations

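Of 27 aquaporin genes, which encode water channels, 0 were called higher and 4 lower under AC with glucose (limma), beside 2.01% and 3.25% of all probe sets. With mannitol 0 were called higher and 7 lower, beside 3.56% and 8.65%.

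Of 10 NAC transcription factor genes, 2 were called higher under AC in both media, and of 6 WRKY genes 1 was, beside 1.03% of all probe sets. All 3 reached 0.25 in a DNP difference, as did 89.9% of all genes at least 1 higher under AC in both media. In the cytochrome P450 list of 38 genes, DWARF (LOC4333399), which makes brassinosteroids, rose under AC with glucose by 2.27 ± 0.20 (limma, adjusted p = 0.000166). Its AC difference with mannitol was 0.46 ± 0.20 (limma, adjusted p = 0.121), and its DNP differences were -0.40 and -0.35.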
